A study of Saccharomyces cerevisiae BY4743 with 24 samples.

Results

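Trisomes are messenger RNAs caught with 3 ribosomes on them, and the heat response of the trisome pool of yeast polysome gradients is described here. The libraries are those whose titles name pool 3 and whose library names carry the tag tri, 6 of the 24 libraries of the series: 3 from cells at 30 °C and 3 from cells held for 30 min at 42 °C. All groups are the diploid laboratory strain BY4743 of Saccharomyces cerevisiae, grown to mid-log phase at 30 °C in synthetic complete medium with raffinose. The cells at 42 °C had also been filtered and resuspended and the cells at 30 °C had not, so the handling and the temperature cannot be told apart. At harvest the translation inhibitor cycloheximide was added to every culture, lysates were run on sucrose gradients, fractions were joined by their absorbance profile, and spike-in RNA was added to each pool. Libraries of total RNA were made with a stranded SMART-Seq kit and without removal of rRNA, so each library holds the mRNAs of the pool together with the rRNA of the ribosomes they sedimented with. By its title, the study asked about ribosomes that fall silent under heat shock and about the turnover of mRNA.

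As background, a messenger moves down a sucrose gradient with the number of ribosomes it carries, so a pool is read as a class of ribosome load, and ribosomes that carry no messenger can travel with it. In heat shock, budding yeast is known to switch off the genes for ribosomal proteins and ribosome assembly and to switch on chaperone genes through Hsf1 and general stress genes through Msn2 and Msn4. The level of an mRNA in 1 pool depends both on how much of it the cell holds and on where in the gradient it lies, and the 2 cannot be told apart from this pool.

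Levels are given as mRNA TPM, which is the deposited TPM (transcripts per 1000000, a value already divided by transcript length) rescaled so that the 5959 mRNA entries of a library sum to 1000000. A second scale sets each RNA against 25S rRNA, the large rRNA of the 60S subunit. The 2 scales differ by 1 factor per library, so the 25S scale moves the change of nearly every gene down by about the same amount. Changes are log2 of 42 °C over 30 °C after a pseudocount of 1, with the standard error and the Benjamini-Hochberg adjusted p of limma over 3949 genes, and a gene is called when that p is at most 5%.

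The replicates resembled each other. Between libraries of 1 group, the correlation of log2 levels across genes was 0.92 to 0.95 at 30 °C and 0.89 to 0.90 at 42 °C. The depth per library is unknown because TPM keeps no read numbers, and the number of mRNAs with a value of 0 was 761 to 820 in the 30 °C libraries against 843 to 908 after heat. For the strain check, URA3, which is deleted in BY4743, was listed at 0 in all 6 libraries, while LEU2, also deleted, ran from 0 to 70.5 mRNA TPM. HIS3, the third gene with a deletion allele in this strain, is deleted only in part. It was above 0 in every library, at 115.2, 62.6 and 44.4 mRNA TPM at 30 °C and at 132.7, 63.97 and 17.6 at 42 °C. Among 16 genes that only haploid cells express, the summed level was 10.8 to 21.01 mRNA TPM at 30 °C. At 42 °C it was 54.2, 299.3 and 358.6, of which the a-factor gene MFA1, a very short gene, gave 0, 244.3 and 302.0. Spike-in RNA held 31.0, 410.2 and 398.2 TPM in the 30 °C libraries and 94.3, 448.4 and 406.0 in the 42 °C libraries, with replicate 1 lowest at both temperatures.

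Less mRNA accompanied 25S rRNA in the trisome pool after heat. For every 1000 TPM of 25S rRNA the libraries held 85.0, 96.1 and 91.5 TPM of mRNA at 30 °C and 60.7, 74.7 and 64.1 at 42 °C. The mean was 90.9 ± 5.55 at 30 °C and 66.5 ± 7.32 at 42 °C (SD, n = 3), 0.73 of the level at 30 °C or −0.45 on the log2 scale. The groups did not overlap, and an exact 2-sided permutation test gave p = 0.1, the smallest that 3 libraries against 3 can give. Against 18S rRNA, the rRNA of the 40S subunit, the change was −0.43, and the ratio of 18S to 25S rRNA was 0.818 ± 0.0465 at 30 °C and 0.804 ± 0.0216 at 42 °C, with overlapping groups.

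In the summed levels, that drop lay in the mRNAs of ribosomal proteins. They held 52.9, 52.6 and 53.5 TPM per 1000 TPM of 25S rRNA at 30 °C and 1.17, 0.714 and 1.43 at 42 °C, so the means of 53.0 ± 0.457 and 1.11 ± 0.361 differed 50.0-fold. All other mRNAs together went the opposite way, from 32.1, 43.4 and 37.98 to 59.5, 74.0 and 62.6, a 1.73-fold higher mean at 42 °C with no overlap. Much of that higher sum lay in short genes. Other mRNAs from genes of at least 600 nt held 11.1 ± 1.45 TPM per 1000 TPM of 25S rRNA at 30 °C and 14.5 ± 2.13 at 42 °C, with overlapping groups. The typical mRNA outside ribosomal proteins did not rise with the sum. For tested genes of that kind, the median log2 change against 25S rRNA was −0.73 to −0.56 in every length class above 300 nt. Up to 300 nt it was 0.07. Of these sums only the total was a planned test. The sums of ribosomal protein mRNAs and of longer genes were chosen after the data were seen.

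**Figure D1:**
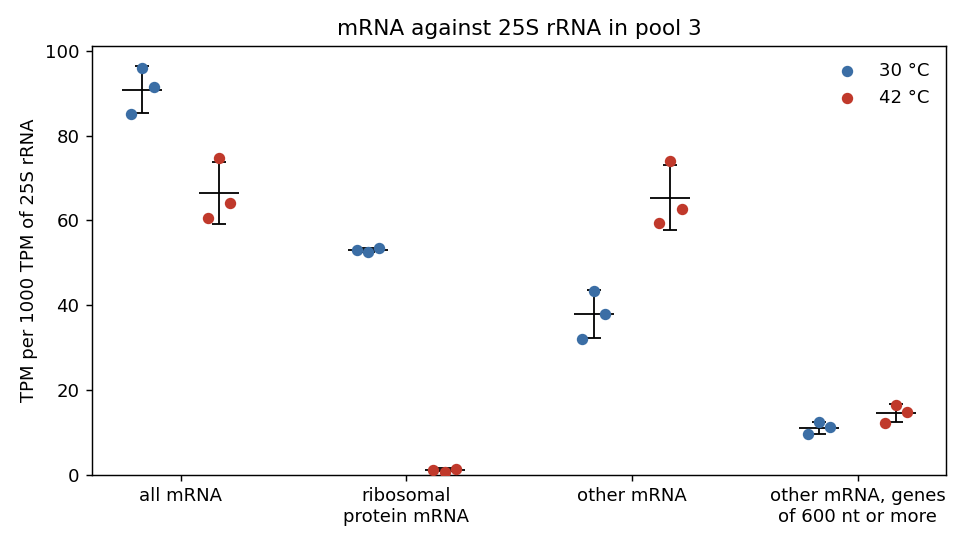
TPM of mRNA per 1000 TPM of 25S rRNA in each library of pool 3 (points), with the mean and SD of 3 libraries (bars), at 30 °C and 42 °C. Ribosomal protein mRNAs fell from 53.0 to 1.11 while the other mRNAs together were higher at 42 °C, 65.4 against 37.8.

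The make-up of the mRNA changed with it. Ribosomal protein mRNAs were 62.2%, 54.8% and 58.5% of mRNA TPM at 30 °C and 1.94%, 0.956% and 2.23% at 42 °C. General stress genes, a list of 31 genes known to be induced by many stresses, held 2.10 ± 0.634% at 30 °C and 28.3 ± 2.71% at 42 °C. Cytosolic chaperones went from 0.286 ± 0.0409% to 7.78 ± 1.50%, and the single gene CUP1-2 from 0.729%, 0.601% and 0.339% to 15.8%, 7.62% and 7.94%. No library of one temperature reached the range of the other for any of these shares. The share of ribosomal protein mRNAs was tested and gave p = 0.1 in the exact permutation test. From the most abundant mRNA down, 28, 39 and 34 mRNAs made up 50% of the mRNA at 30 °C and 13, 10 and 15 did at 42 °C.

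The identities at the top were replaced almost completely. At 30 °C, 9 of the 10 most abundant mRNAs encoded ribosomal proteins, led by RPS29B at 106628, 79867 and 80786 mRNA TPM, and the other was COX9, a subunit of cytochrome c oxidase. At 42 °C none of the 10 did. The leaders there were CUP1-2, a copper-binding metallothionein present in tandem copies, and STF2, HSP12 and YBR085C-A. CUP1-2 stood at 7291, 6011 and 3386 mRNA TPM at 30 °C and at 158234, 76194 and 79350 at 42 °C, with replicate 1 about as high as both others together. These top genes were singled out after their values were seen.

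**Figure D2:**
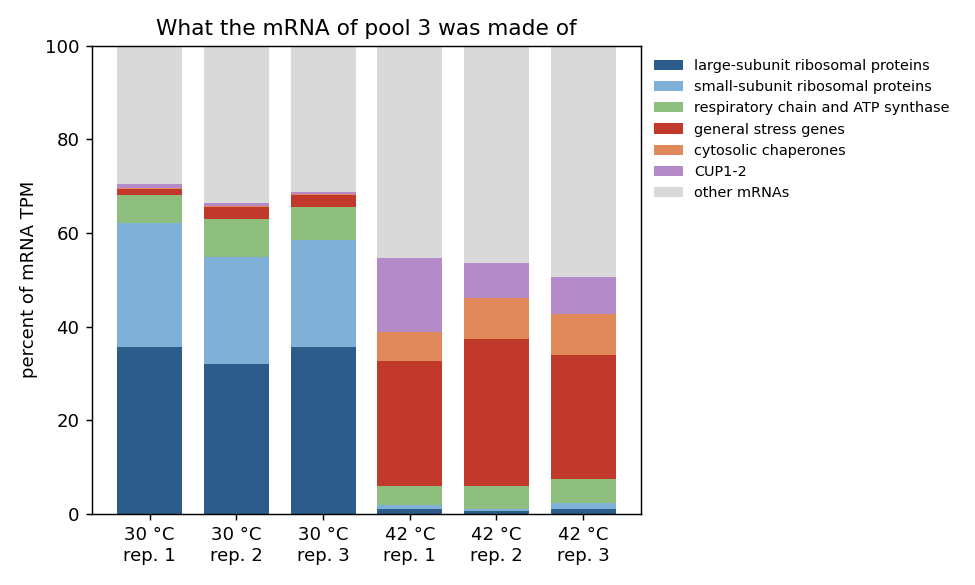
Percent of mRNA TPM taken by 5 gene lists, by CUP1-2 and by all other mRNAs in each library of pool 3, 1 bar per library. Ribosomal protein mRNAs, 58.5% on average at 30 °C, were 1.71% at 42 °C, where general stress genes held 28.3%.

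Short genes need care on this scale. The 281 mRNAs from genes under 300 nt held 35.8% to 40.2% of mRNA TPM at 30 °C and 51.4% to 57.2% at 42 °C. Among genes of at most 200 nt the lowest value above 0 was 91.6 to 160.1 mRNA TPM per library, against 0.154 to 0.349 among genes of 1001 to 1100 nt, so values of the shortest genes move in large steps. Among genes of at least 600 nt, 37, 44 and 40 mRNAs made up 50% of their sum at 30 °C and 47, 26 and 29 at 42 °C, which overlap. The mean gene length, weighted by mRNA TPM, was 534 ± 13.4 nt at 30 °C and 485 ± 20.1 nt at 42 °C. Within genes of at least 600 nt it went the opposite way, from 964 ± 16.04 to 1245 ± 6.63 nt. These lengths are the annotated gene spans, introns included.

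Gene by gene, 824 mRNAs (20.9% of those tested) were called higher and 1109 (28.1%) lower in the trisome pool at 42 °C, with a median change of −0.24. Against 25S rRNA, 611 (15.5%) were higher and 1513 (38.3%) lower, with a median of −0.66. No gene called higher on the first scale was called lower on the second, and 597 were called higher and 1109 lower on both. The balance of calls varied with the scale. Median scaling gave 1065 (27%) higher and 964 (24.4%) lower. Genes of at least 600 nt on their own sum gave 1037 (32.9%) higher and 641 (20.4%) lower, and rescaling the mRNAs other than ribosomal protein mRNAs to their own sum gave 317 (8.32%) higher and 2017 (52.9%) lower, with a median of −1.33. Quantile normalization gave 1125 (28.5%) higher and 971 (24.6%) lower, and TPM as deposited gave 647 (16.4%) and 1731 (43.8%). The pseudocount of 1 weighs more in that last fit, since mRNA summed to 21736 to 37690 deposited TPM per library. Changes of scarce mRNAs come out smaller there, with a median for ribosome biogenesis genes of −0.88 against −3.56 in the main fit. Scaled to spike-in RNA, which was lowest in replicate 1 at both temperatures, 58 (1.47%) were higher and 393 (9.95%) lower, and most lists below had fewer calls there. With the replicate number as a block, in pool 3 libraries alone, that scale gave 249 of 3949 higher and 1386 lower. Of 66 list counts, 52 then stayed near the main fit, against 24 without the block. The spike-in counts below are those without the block, so a missing call there is not a sign of no change. In 62.9% of tested genes the 3 libraries at 42 °C lay all above or all below the 3 at 30 °C. The counts for gene lists below are read against these shares.

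Several of the 12 largest rises were those of known heat shock genes. HSP26 encodes the small heat shock protein that co-assembles with unfolding proteins, and lies on chromosome II (382030 to 382674, build R64). It was listed at 3.14, 0 and 0 mRNA TPM at 30 °C and at 18690, 30205 and 27920 at 42 °C, a log2 change of 13.93 (SE 0.94, adjusted p = 1.02e-09). Per 1000000 TPM of 25S rRNA, HSP26 mRNA went from 0.267, 0 and 0 TPM to 1134, 2256 and 1789. The 2 groups are separated by orders of magnitude on either scale. SSA4, the heat-induced Hsp70 on chromosome V (364589 to 366517), went from 3.46, 5.73 and 4.14 to 4143, 6606 and 7140 mRNA TPM, a change of 10.08 (SE 0.39, adjusted p = 5.02e-13).

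LSO1, on chromosome X (448477 to 448758), encodes a small protein related to Lso2, which sits on idle ribosomes. Every 30 °C library listed it at 0, and it stood at 3262, 1344 and 2190 mRNA TPM at 42 °C (adjusted p = 3.49e-14). HSP30, a plasma membrane heat shock protein, was at 0, 1.57 and 0 at 30 °C and at 1407, 2321 and 1754 at 42 °C. The Hsp70 gene SSA3 rose by 8.64 (SE 0.44) and BTN2, which sorts aggregated proteins, by 7.91 (SE 0.62). Of the 12 genes with the largest rises, 6 were under 300 nt, and 4 of the 12, LSO1, DPC7, YMR158C-A and MNC1, were listed at 0 throughout at 30 °C. The others were YER053C-A, the hydrophilin gene SIP18 and the cell wall gene SPI1. SIP18 was uneven at 42 °C, with 15444 mRNA TPM in replicate 1 and 4306 and 4417 in the others.

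All 23 cytosolic chaperone genes of the list were called higher, with a median change of 4.65 against −0.24 for all genes. Against 25S rRNA 22 were higher, and on the spike-in scale 7 were, with a median of 3.39. HSP104, the disaggregase that pulls proteins out of aggregates, went from 47.9, 38.6 and 38.1 mRNA TPM to 3948, 5852 and 6040 (log2 6.94, SE 0.27, adjusted p = 5.54e-13). HSP82, the inducible Hsp90, went from 65.5, 53.3 and 59.8 to 3926, 5391 and 5795 (log2 6.36, SE 0.26). Its sequence is close to that of HSC82, so reads may be split between them. CPR6, a cyclophilin that works with Hsp90, rose by 5.48 (SE 0.21). In all 3 of these genes replicate 1 was the lowest at 42 °C and still far above every library at 30 °C. The smallest rise of the list was 0.90.

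Chaperones outside the cytosol were mixed. In mitochondria, 5 of 7 genes tested were higher (1 on the spike-in scale). HSP78, the mitochondrial disaggregase, rose by 6.02 (SE 0.33), and the chaperonin subunits HSP60 and HSP10 by 2.09 (SE 0.25) and 2.31 (SE 0.28). MGE1, the exchange factor of mitochondrial Hsp70, fell by 1.62 (SE 0.26), from 164 to 187 mRNA TPM down to 42.8 to 66.2. In the endoplasmic reticulum, 8 of 12 folding factors were higher and 0 lower. Without ribosomal protein mRNAs in the sum these counts were 6 and 3, and for TPM as deposited 7 and 3. Scaling to spike-in RNA left none called in limma. KAR2, the Hsp70 of that compartment, went from 14.4, 12.7 and 8.97 to 313, 383 and 429 mRNA TPM (log2 4.86, SE 0.25, adjusted p = 2.18e-11), whereas PDI1, the disulfide isomerase, rose by 1.73 (SE 0.20).

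The chaperones that meet nascent chains at the ribosome moved the other way. Of 8 tested, 6 were lower and 0 higher, with a median of −3.61. SSB1, the ribosome-bound Hsp70, went from 299, 353 and 334 mRNA TPM to 1.37, 0.623 and 7.09 (log2 −6.71, SE 0.55). Its paralog SSB2 is nearly identical, so the split between them is uncertain. EGD1 and EGD2, subunits of the nascent polypeptide-associated complex, fell by 3.43 (SE 0.90) and 3.15 (SE 0.43). For the CCT chaperonin, which folds actin and tubulin, and its partner prefoldin, 4 of 14 genes were lower and 10 were not called. That count of lower genes is near the share over all tested genes, 28.1%. The median of −0.62 turned to 0.26 among the 9 genes of at least 600 nt rescaled to their own sum. CCT6 stood at 130, 163 and 203 mRNA TPM at 30 °C and at 178, 181 and 188 at 42 °C, which overlap.

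Of 31 general stress genes 29 were higher and 1 lower, with a median of 4.13. On the spike-in scale 8 were higher, with a median of 2.89. STF2, which encodes a small protein that protects against drying, went from 6108, 6905 and 4622 mRNA TPM to 79772, 113036 and 79005 (log2 3.94, SE 0.31, adjusted p = 9.87e-09). HSP12, a membrane-associated small heat shock protein, was uneven at 30 °C, at 777, 6986 and 11043, and stood at 76033, 88603 and 94689 at 42 °C (log2 4.46, SE 0.90). TMA10, a paralog of STF2, rose by 1.79 (SE 0.34). All of these are short genes, and among the 17 list members of at least 600 nt, rescaled to their own sum, 16 were higher and 0 lower. GPX2, a glutathione peroxidase, was the exception and fell by 3.51 (SE 0.84). The other gene not called, HSP32, was listed at 0 in all 6 libraries and is nearly identical to other genes of its family.

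The proteasome list had a lower median change than the cytosolic chaperones, and its calls depended on the scale. Of 33 proteasome subunits, 29 were higher, 0 lower, and the changes lay between 0.46 and 1.95 with a median of 1.22. PUP2, a subunit of the catalytic core, went from 221, 184 and 223 mRNA TPM to 878, 732 and 801 (log2 1.94, SE 0.22), and SEM1, a subunit of the lid, rose by 1.86 (SE 0.36). Against 25S rRNA 18 were higher with a median of 0.79. When ribosomal protein mRNAs were taken out of the sum, 3 were higher, 2 lower and the median was 0.02, so against the sum of the remaining mRNAs most of these genes were not called. On the spike-in scale 0 were called in limma, with a median of 0.14. RPN4, the transcription factor of the proteasome genes, went from 9.55, 19.3 and 8.61 to 125, 135 and 122 (log2 3.33, SE 0.28).

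Of 21 genes of the ubiquitin system, 11 were higher and 1 lower, with a median of 0.77 that turned to −0.48 without ribosomal protein mRNAs in the sum and to −0.32 on the spike-in scale, where 0 were called. UBI4, the stress-induced polyubiquitin gene, went from 125, 70.7 and 81.9 mRNA TPM to 1501, 1590 and 1757 (log2 4.15, SE 0.27). The ubiquitin-conjugating enzyme UBC4 rose by 2.17 (SE 0.28). RSP5, a ubiquitin ligase, fell by 1.77 (SE 0.37).

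Ribosomal protein mRNAs were far lower in the trisome pool at 42 °C. Of 81 large-subunit genes tested, 78 were lower and 1 higher, with a median of −6.60, and of 56 small-subunit genes 55 were lower and 0 higher, with a median of −6.57. All 12 genes with the largest falls were of this class, and 9 of those 12 were listed at 0 in at least 2 libraries at 42 °C. RPL30, on chromosome VII (439091 to 439638), stood at 1990, 2387 and 2618 mRNA TPM at 30 °C and every 42 °C library listed it at 0. RPS8B went from 3959, 3667 and 3591 to 0, 0 and 75.9 (log2 −9.78, SE 1.52, adjusted p = 3.2e-05). RPS8B lies on chromosome V (363100 to 363702) next to SSA4, one of the largest rises. RPL22A went from 3672, 3781 and 4899 to 3.52, 2.79 and 30.9 (log2 −8.96, SE 0.80). In both genes replicate 3 kept the most at 42 °C, and every library there lay below every library at 30 °C.

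The abundant members kept a remnant. RPS29B was at 1879, 122 and 1661 mRNA TPM at 42 °C, a fall of 6.92 (SE 0.86), and RPL38 went from 85408, 61716 and 77939 to 4760, 2199 and 4047, a fall of 4.41 (SE 0.52). RPS30A fell least among those called in the small subunit, by 2.08 (SE 0.42), from 16407, 12396 and 12058 to 4228, 1466 and 5210. Replicate 2 was the lowest at 42 °C in each of these 3 genes. The 3 genes not called were RPL41A, RPL41B and RPS30B, with changes of −5.59, −6.03 and −4.29, and against 25S rRNA all 3 were called lower. Many yeast ribosomal proteins are encoded by near-identical gene pairs, so the split of reads within a pair is uncertain and the value of a single copy is less sure than the count over the family.

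RPL15B was the ribosomal protein gene called higher, a call not made on the spike-in scale (0.46). It went from 26.5, 40.5 and 31.0 mRNA TPM to 112, 99.4 and 80.0 (log2 1.55, SE 0.30, adjusted p = 0.000339). Its partner RPL15A, the copy that dominated at 30 °C, went from 3591, 3774 and 4079 to 30.7, 32.0 and 57.1 (log2 −6.60, SE 0.39). At 30 °C the level of RPL15A was far above that of RPL15B in every library, and at 42 °C RPL15B was the higher of the 2 in every library.

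Genes that build ribosomes were lower as well. Of 65 ribosome biogenesis genes 62 were lower and 0 higher, with a median of −3.56. SNU13, a protein of small nucleolar ribonucleoproteins, went from 276, 396 and 220 mRNA TPM to 14.3, 5.59 and 0 (log2 −5.96, SE 1.43), and NOP10, a protein of the pseudouridylation complexes, fell by 3.07 (SE 0.38). Of 20 genes of RNA polymerases I and III, which make rRNA, 5S rRNA and transfer RNA, 17 were lower and 0 higher. RPC40, a subunit both enzymes share, fell by 3.77 (SE 0.97). For proteins of the mitochondrial ribosome 52 of 71 were lower and 0 higher, with a median of −1.54. With quantile normalization 36 of the 71 were lower, on the spike-in scale 1 was, and among genes of at least 600 nt 9 of 38 were.

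Many genes of the translation apparatus beyond the ribosome were lower too. All 19 cytosolic tRNA synthetases were called lower, with a median of −3.00 (8 of 19 on the spike-in scale), among them SES1 for serine, which went from 224, 286 and 278 mRNA TPM to 10.3, 0 and 18.4 (log2 −5.44, SE 0.78). Of 28 initiation factors 22 were lower and 0 higher, while median scaling gave 22 and 3 and the spike-in scale 4 and 0. TIF11, which encodes eIF1A, fell by 3.40 (SE 0.43). DED1, the RNA helicase that opens leaders for scanning, was among the 6 not called, at 105, 142 and 130 mRNA TPM at 30 °C and 161, 183 and 193 at 42 °C. Its groups did not overlap, with a change of 0.52 (SE 0.25, adjusted p = 0.0989) that was 0.07 against 25S rRNA. PAB1, the poly(A)-binding protein, fell by 2.37 (SE 0.41).

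Elongation and termination factors gave 10 of 15 lower and 0 higher (5 and 0 on the spike-in scale). TEF1, which encodes the factor that delivers aminoacyl-tRNA, fell by 1.34 (SE 0.24), from 1669, 1740 and 2177 to 628, 651 and 951 mRNA TPM, although TEF2 encodes the same protein and reads may be split. EFB1, its exchange factor, stood at 495, 541 and 525 at 30 °C and 451, 571 and 780 at 42 °C, and those values overlap. The 3 genes for factors bound to idle ribosomes parted. While LSO1 rose from 0, its relative LSO2 fell by 1.19 (SE 0.36), from 995, 1440 and 913 to 608, 453 and 400, which was not called without replicate 2 at 30 °C (−0.99). STM1, which clamps idle ribosomes and guards them in starvation, went from 1030, 1304 and 1192 to 32.6, 13.9 and 13.9 (log2 −5.90, SE 0.42, adjusted p = 2.01e-09).

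**Figure D3:**
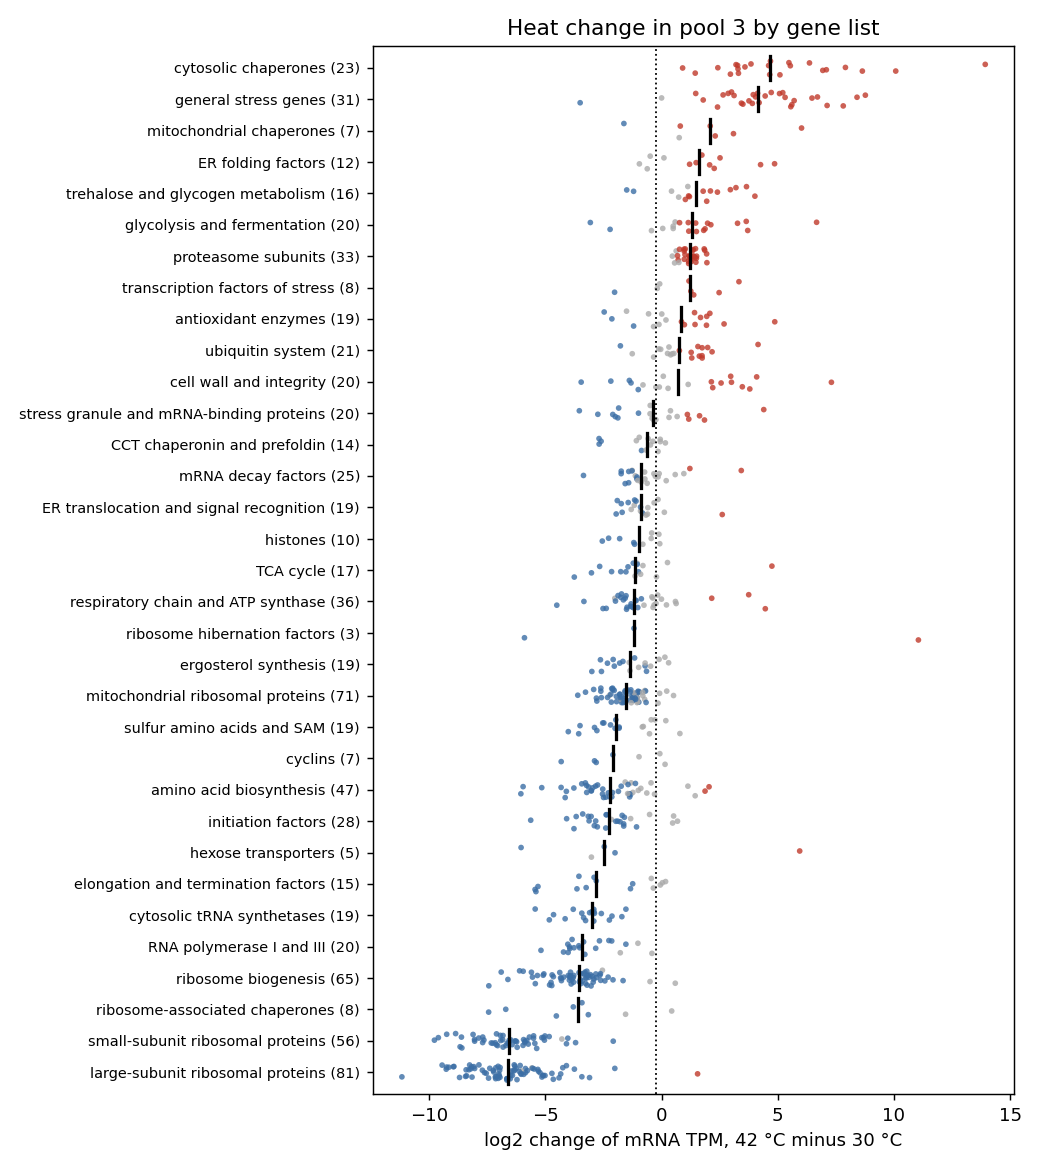
Log2 change of mRNA TPM from 30 °C to 42 °C in pool 3 for the tested members of 33 gene lists (points, with the number tested after each name), the list median (black bars) and the median of all tested genes, −0.24 (dotted line). Red and blue points passed 5% as higher and lower, grey points did not, and the lists run from ribosomal proteins at medians near −6.6 to cytosolic chaperones at 4.65.

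Energy metabolism split by pathway. Of 20 genes of glycolysis and fermentation 13 were higher and 2 lower, with a median of 1.32. TDH3, a glyceraldehyde-3-phosphate dehydrogenase with near-identical paralogs, went from 2023, 2375 and 2318 mRNA TPM to 7011, 8585 and 9055 (log2 1.87, SE 0.18), and PGK1, phosphoglycerate kinase, rose by 2.12 (SE 0.20). PDC1, pyruvate decarboxylase, had 2062, 1614 and 1861 at 30 °C and 1480, 1232 and 1370 at 42 °C and was not called. Without ribosomal protein mRNAs in the sum, 7 of the 20 were higher and 8 lower, and on the spike-in scale 1 was higher. For the reserve carbohydrates trehalose and glycogen, 11 of 16 were higher and 2 lower. Without ribosomal protein mRNAs in the sum 6 were higher, with a median of 0.35, and on the spike-in scale 0 were called in limma. TPS1 and TSL1, subunits of the trehalose synthase complex, rose by 3.20 (SE 0.22) and 4.02 (SE 0.25).

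More genes of respiration were lower than higher, by a margin that varied with the scale. Of 36 subunits of the respiratory chain and ATP synthase 21 were lower and 3 higher, and of 17 genes of the TCA cycle 10 were lower and 1 higher. With median scaling 17 and 9 of them were lower, with quantile normalization 18 and 7. Scaling to spike-in RNA left 1 lower in each list. Among genes of at least 600 nt 6 of 12 and 6 of 15 were lower. ACO1, aconitase, went from 213, 440 and 544 mRNA TPM to 105, 26.2 and 69.1 (log2 −2.67, SE 0.63). COX9, the most abundant of them, had 29903, 38093 and 34200 at 30 °C and 14720, 23940 and 22804 at 42 °C, which do not overlap, but its change of −0.76 (SE 0.34) was not called. The genes called against these lists were CYC7, COX5B and NDE2 in the respiratory chain and CIT2 in the TCA list.

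Those exceptions are alternative forms of a protein whose main form fell or was not called. CYC7, the minor cytochrome c, went from 77.0, 104 and 36.2 mRNA TPM to 1542, 1585 and 1339 (log2 4.46, SE 0.56), while CYC1, the major form, went from 352, 580 and 503 to 14.7, 34.0 and 14.9 (log2 −4.51, SE 1.08). The 2 forms traded places. COX5B, a form of oxidase subunit 5 known from low oxygen, rose by 2.16 (SE 0.83) with replicate 2 at 42 °C below replicate 1 at 30 °C, and COX5A fell by 1.99 (SE 0.31). Against 25S rRNA the rise of COX5B was 1.72 and not called, and the call was also lost on leaving out replicate 2 or 3 at 30 °C (1.69 and 1.93) or replicate 1 or 3 at 42 °C (1.84 and 1.97). NDE2, an external NADH dehydrogenase, rose by 3.75 (SE 0.57) and NDE1 fell by 1.73 (SE 0.41). CIT2, the peroxisomal citrate synthase, went from 6.72, 16.3 and 8.03 to 261, 225 and 394 (log2 4.75, SE 0.49), whereas the mitochondrial enzyme CIT1 overlapped between the groups.

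Related genes also parted in sugar uptake and storage, though for phosphoglucomutase and glycogen synthase the main form was the one that rose. HXT5, a hexose transporter of slow growth, went from 0.478, 0.579 and 0 mRNA TPM to 106, 74.6 and 66.6 (log2 5.94, SE 0.42), and HXT7, a high-affinity transporter nearly identical to HXT6, went from 317, 247 and 297 to 7.36, 0 and 8.68 (log2 −6.05, SE 0.88). Of the kinases that trap hexose in the cell, GLK1 rose by 1.98 (SE 0.24) and HXK2 and HXK1 fell by 3.07 (SE 0.29) and 2.22 (SE 0.38). PGM2, the major phosphoglucomutase, rose by 2.96 (SE 0.47) and PGM1 fell by 1.21 (SE 0.49), a call lost on leaving out any 1 of the 6 libraries, with changes of −1.32 to −1.14. GSY2, the main glycogen synthase, rose by 1.94 (SE 0.34) and GSY1 fell by 1.50 (SE 0.44).

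In oxidant defence 10 of 19 genes were higher and 3 lower, with a median of 0.86 that turned to −0.39 without ribosomal protein mRNAs in the sum and to −0.24 on the spike-in scale. The peroxiredoxin gene TSA2 rose by 4.87 (SE 0.84), from 3.14, 0 and 2.21 to 138, 78.8 and 28.9 mRNA TPM. TSA1, the housekeeping form, rose by 0.86 (SE 0.27), a change of 0.40 that was not called against 25S rRNA. The call was also lost without replicate 2 or replicate 3 at 30 °C (0.76 in both cases). GPX1 rose by 3.91 (SE 0.48) where GPX2 fell. The 12 pairs plotted here were picked after their values were seen, from genes that went against their list and their relatives, so they describe these libraries and say nothing on how often related genes part.

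**Figure D4:**
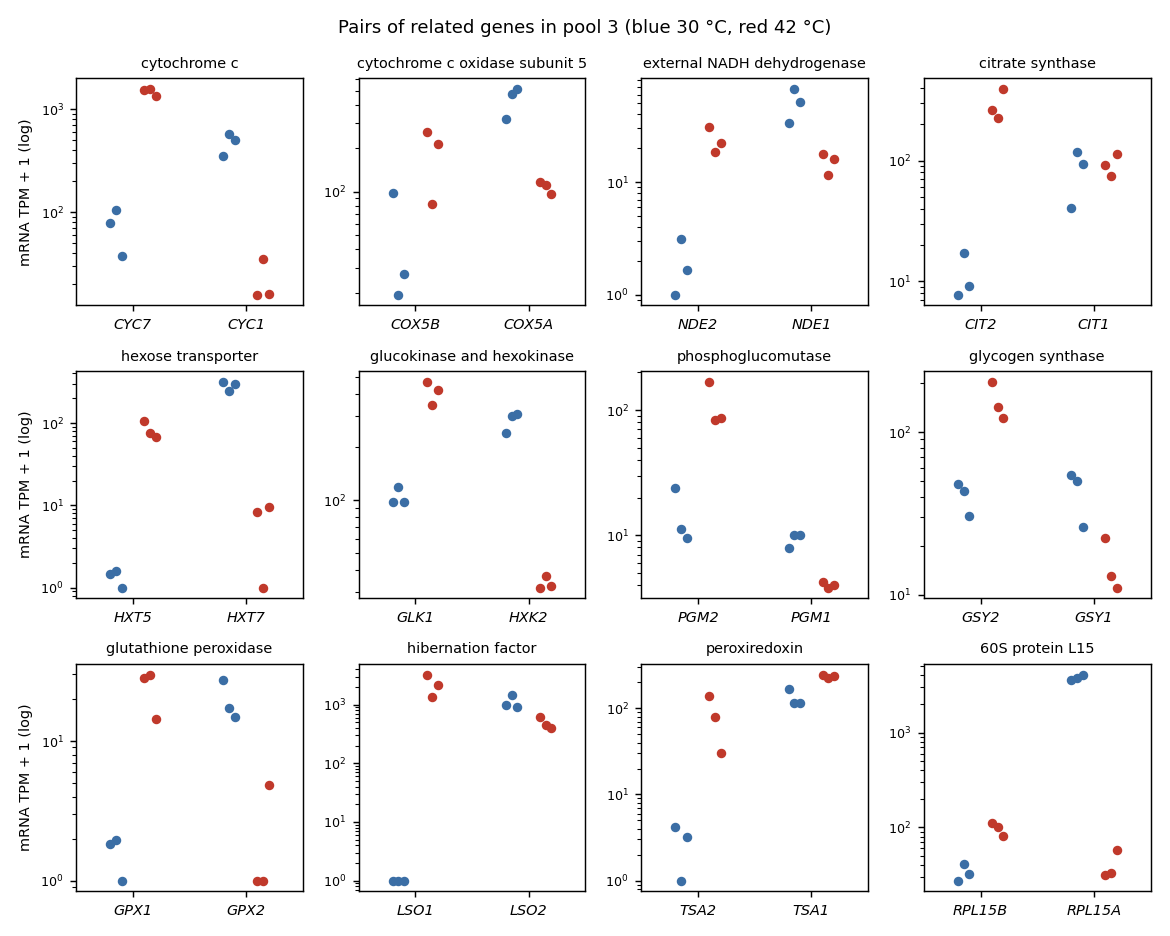
Level in mRNA TPM plus 1 (log axis) of 12 pairs of related genes in each library of pool 3, with 30 °C in blue and 42 °C in red. In 11 of the pairs the gene on the left rose while the gene on the right fell or was not called, and in the peroxiredoxin pair both rose.

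Of 47 genes of amino acid synthesis 33 were lower and 2 higher, with a median of −2.22. On the spike-in scale 9 were lower, and in the sulfur and ergosterol lists that follow 3 and 0 were. ILV5, of branched-chain amino acid synthesis, went from 428, 355 and 505 mRNA TPM to 30.8, 12.4 and 21.4 (log2 −4.33, SE 0.49). SER3, of serine synthesis, and ARG3, of arginine synthesis, were called against the rest, with changes of 2.04 and 1.87 at levels of at most 16.1 mRNA TPM. That of ARG3 was not called without replicate 3 at 30 °C (1.49). In the sulfur amino acid list 12 of 19 were lower and 0 higher. SAH1, which clears the by-product of methylation reactions, fell by 3.57 (SE 0.34), from 695, 1051 and 989 to 88.0, 62.4 and 75.9. Of 19 ergosterol genes 11 were lower and 0 higher, ERG6 among them with a fall of 2.08 (SE 0.30). For translocation into the endoplasmic reticulum 9 of 19 genes were lower and 1 higher, SGT2, which hands tail-anchored proteins on, from 186, 202 and 169 to 1206, 996 and 1225 mRNA TPM (log2 2.61).

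Cell wall genes went both ways. Of 20 tested 9 were higher and 5 lower, where 20.9% and 28.1% of all tested genes were. The count of lower genes is thus near the share over all genes. The median of 0.71 turned to −0.52 without ribosomal protein mRNAs in the sum and to −0.37 on the spike-in scale. HSP150, a heat-induced wall protein, went from 127, 172 and 184 mRNA TPM to 1363, 1979 and 2085 (log2 3.47, SE 0.33). The abundant mannoproteins CCW12 and CWP2 fell by 1.01 (SE 0.21) and 1.39 (SE 0.36), and CIS3 by 3.46 (SE 0.48). Of 8 transcription factors of stress tested, 5 were higher and 1 lower. HAC1, the factor of the unfolded protein response, went from 25.7, 18.7 and 12.5 to 47.3, 46.0 and 42.0 (log2 1.26, SE 0.30). GCN4, the factor of amino acid starvation, fell by 2.02 (SE 0.52), from 39.0, 34.3 and 32.4 to 13.6, 5.84 and 6.03.

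Among RNA-binding proteins of stress granules and related particles 5 of 20 were higher and 7 lower, with a median of −0.37 that turned to 0.40 among genes of at least 600 nt. Both counts are near the shares over all tested genes, 20.9% higher and 28.1% lower. RIE1 rose by 4.40 (SE 0.39), NPL3, an mRNA export factor, by 1.85 (SE 0.32), and GIS2, which binds mRNAs of the translation machinery, fell by 3.54 (SE 0.44). Of 25 mRNA decay factors 9 were lower and 2 higher. The 2 were EDC2, an enhancer of decapping, which went from 58.6, 71.5 and 41.3 mRNA TPM to 520, 635 and 689 (log2 3.43, SE 0.43), and the helicase DHH1, which rose by 1.22 (SE 0.41) and was not called against 25S rRNA. The call of DHH1 was lost without replicate 1 at 30 °C (0.84) or replicate 3 at 42 °C (1.07). Of 10 histone genes 5 were lower and 0 higher, and of 7 cyclins 4 were lower and 0 higher, with PCL1 down from 55.3, 54.7 and 52.8 to 1.59, 2.38 and 1.40. ACT1, actin, stood at 179, 236 and 220 at 30 °C and at 145, 115 and 175 at 42 °C. Its change of −0.55 (SE 0.25) was not called, though without replicate 3 at 42 °C it was (−0.70), and against 25S rRNA it fell by 1.01 (adjusted p = 0.0042).

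Few other non-coding RNAs were called. Of 66 tested together with the mRNAs, 5 were higher and 2 lower, where 20.6% and 27.6% of all RNAs in that fit were higher and lower. Against 25S rRNA 7 were higher and 5 lower, where the shares over all were 15.3% and 37.6%. Many of the 66 stood at 0 in several libraries with a large standard error, so the test could miss changes in them. SNR18, for example, was at 0 throughout at 30 °C and at 313, 244 and 0 at 42 °C (SE 3.68). Together, other non-coding RNAs held 1234 ± 286 deposited TPM at 30 °C and 679 ± 109 at 42 °C (SD, n = 3), with no overlap. The snoRNA SNR190 was the most abundant of those called, and went from 21922, 17286 and 23451 to 7785, 6805 and 7637 on the mRNA TPM scale (log2 −1.49, and −1.94 against 25S rRNA). SNR30, a snoRNA of 18S rRNA processing, went from 56.5, 21.96 and 26.4 to 142, 148 and 129. SRG1, transcribed across the promoter of SER3, went from 0, 0 and 1.08 to 16.1, 15.5 and 4.98. How the quantification treated strand and overlapping transcripts is not given in the sources used here, so SRG1 and SER3 may share reads. SCR1, the RNA of the signal recognition particle, overlapped, at 5330, 2311 and 3354 against 5300, 3092 and 3617.

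The heat change of pool 3 was set against that of the neighbouring pools, pool 2 and pool 4, by testing the difference itself with median-scaled levels and each gradient as a block. Against pool 2, 0 of 3949 genes differed at 5% in limma (202 had an unadjusted p below 0.05). The test could have missed a good deal, since on simulated data for that comparison it recovered 25.4% of 4-fold and 50.0% of 8-fold differences. Against pool 4, 1 gene differed (0.0253% of those tested, with 247 at an unadjusted p below 0.05). List medians in the 3 pools, each scaled to the median gene, are given side by side because the pools share their gradients. For cytosolic chaperones the values were 5.04, 4.96 and 5.10 for pools 2, 3 and 4, and for general stress genes 4.14, 4.44 and 5.22. Large-subunit ribosomal proteins gave −6.54, −6.29 and −6.31.

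**Figure D5:**
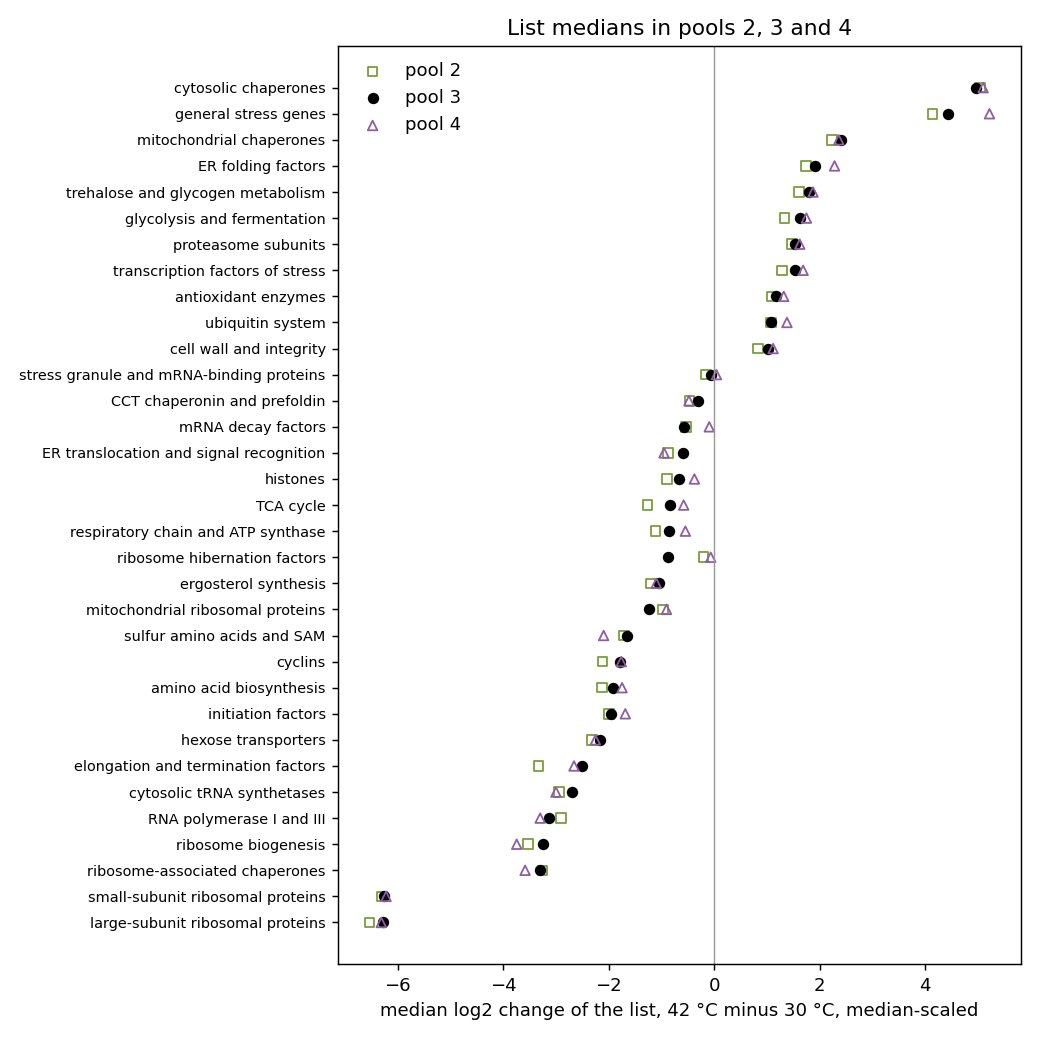
Median log2 change from 30 °C to 42 °C of each gene list in pools 2, 3 and 4, with levels scaled to the median gene of each library. Symbols of the 3 pools lie close together in most lists, with general stress genes at 4.14, 4.44 and 5.22.

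The gene that differed was RUB1, a ubiquitin-like protein that modifies cullins, on chromosome IV (733618 to 733924). In pool 3 it stood at 281, 343 and 198 mRNA TPM at 30 °C and at 537, 419 and 388 at 42 °C. In pool 4 it was at 261.9, 291.4 and 347.5 at 30 °C, and every 42 °C library listed it at 0. The difference of the 2 heat changes was 8.21 on the log2 scale (SE 0.44). Within pool 3 its own change was 0.73 (SE 0.30, adjusted p = 0.0493) on the mRNA TPM scale and 0.28, not called, against 25S rRNA. That call was lost without replicate 1 or 3 at 30 °C (0.76 and 0.51) and without replicate 1, 2 or 3 at 42 °C (0.59, 0.77 and 0.82).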

How the data were processed

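The submitters' processing notes name Trim Galore 0.6.5, Salmon 1.9.0 and build R64. The deposited table gives TPM for 6087 entries in 24 libraries, of which 5959 are mRNAs. Symbols and gene spans came from the RefSeq gene table, where 6082 IDs matched, and spans stand in for the coding length that had been planned. Depth is unknown, and labels do not say whether replicates are separate cultures, so p-values measure the spread between these samples.

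TPM was rescaled to a sum of 1000000 over mRNA entries. A gene was tested if 3 or more of the 24 libraries held 10 or more mRNA TPM of it (3949 genes), and log2(value + 1) was fitted in limma 3.58.1 (R 4.3.3) with a mean-variance trend and 8 group means, 2-sided, with Benjamini-Hochberg adjustment at 5%. The 25S scale used TPM over 25S TPM, times a constant. A total, a share, a length and a number of mRNAs were tested by exact permutation (4 comparisons, each with p = 0.1 before and after adjustment). Differences from pools 2 and 4 used median-scaled levels with the gradient as a block. On simulated data for heat in pool 3 (3949 genes, 200 changed), 25.4%, 62.7% and 83.3% of 2-, 4- and 8-fold changes were recovered, and 3 of 117 calls were unchanged genes.

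The heat fit has no replicate block. It took its spread from all 24 libraries and treated the pools of 1 gradient as separate samples. With pool 3 libraries alone 849 genes were higher and 1235 lower. Named genes are the 12 largest called changes per direction with no overlap and a group mean of 20 mRNA TPM or more. They also include the 3 most abundant members of each list, members called against their list, and a fixed set. Others fall outside this rule, among them the non-coding RNAs. The pairs and the top genes are marked as chosen after their values were seen. The members and the gene lists were chosen with earlier results of these data known. Of the list symbols, 5 had no entry under the name used. Tables and figures were made with Python 3.11.15, numpy 2.4.6, pandas 2.3.3, scipy 1.17.1 and matplotlib 3.10.9.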

Additional observations from a re-analysis of the deposited data

Results flagged for a closer look

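RUB1, which encodes a ubiquitin-like modifier of cullins, was the gene whose heat change in pool 3 differed from that in pool 4, by 8.21 on the log2 scale with median scaling (SE 0.44). The difference itself was tested in limma with the gradient as a block. All 3 libraries of pool 4 at 42 °C have the value 0 for it, so the size depends on the pseudocount. The gene spans 307 nt.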

How the results depend on the processing

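Depth is unknown, 3 libraries a group cannot give an exact p below 0.1, and TPM shows shares rather than amounts, so the balance of calls follows the scale. A filter of 50 mRNA TPM gave 511 higher and 672 lower, from fewer genes. TPM as deposited left 1731 lower, and genes of at least 600 nt on their own sum left 641 lower. Leaving ribosomal protein mRNAs out of the sum, an alternative chosen after seeing the data, gave 317 and 2017. The spike-in scale, on which replicate 1 of both temperatures stands apart, gave 58 and 393. With a replicate block, in pool 3 libraries alone, it gave 249 higher and 1386 lower. The share of calls that were higher was 42.6%, against 28.8% on the 25S scale, 53.7% with quantile normalization, 27.2% for TPM as deposited, 12.9% on the spike-in scale, 61.8% for genes of at least 600 nt and 13.6% without ribosomal protein mRNAs. Same-numbered libraries of the 2 temperatures correlated at 0.054 to 0.088 in their deviations and differently numbered ones at −0.067 to 0.0027. Each library correlated best with its own number, a hint of pairing from the data that stayed under the 0.1 set for it. With the replicate number as a block 769 were higher and 1093 lower, and 565 and 1462 on the 25S scale. On leaving out 1 library, 672 to 747 were higher and 902 to 1058 lower. The log2 change of the ratio of mRNA to 25S rRNA reversed from −0.45 to 0.79 without ribosomal protein mRNAs, a 1.73-fold higher ratio at 42 °C. That of the mean gene length reversed from −0.14 to 0.37 among genes of at least 600 nt.

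Differences from pool 2 numbered 2 when pools 3 and 2 were fitted alone. On leaving out 1 gradient, which is 1 replicate of 1 temperature in all its pools, they ran from 0 to 5. They were 4, 5 and 2 without replicates 1, 2 and 3 at 42 °C. Differences from pool 4 numbered 12 on the mRNA sum, 3 on the 25S scale and 2 with quantile normalization. On leaving out 1 gradient there were 1 to 12, with 8, 12 and 5 without replicates 1, 2 and 3 at 42 °C. Without replicate 1 at 30 °C there were 2. Without ribosomal protein mRNAs the log2 change turned to −1.08 for CCT6, −0.98 for CIT1, −0.72 for DED1, −1.08 for EFB1, −0.52 for RUB1, −1.21 for TEF2 and −0.39 for TSA1, and on the spike-in scale, with or without the replicate block, to −0.36 for RUB1 and −0.24 for TSA1. The cause of these changes was not tested. Among the 113 genes named, no other change called in the main fit turned. Small changes that were not called there, such as those of CCT6 and EFB1, also fell below 0 on the 25S and spike-in scales.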
